A study of Homo sapiens with 6 samples.

Results

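Integrins are cell-surface receptors built from 1 alpha and 1 beta subunit, and they tie cells to the extracellular matrix. The 10 genes described here were chosen by symbol from a list of subunits that bind matrix or that release active TGF-beta from its latent form: ITGB8, ITGB6, ITGB5, ITGB3, ITGB1, ITGAV, ITGA1, ITGA2, ITGA3 and ITGA5. Of these, 9 were found among the 22258 gene symbols of the expression table, and ITGB3 was not analysed here. All 9 passed the filter on low values, a mean of at least 0.5 RPM (reads scaled to a common sequencing depth) over the samples, which left 16301 genes to test.

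The samples are SW480, a human colon cancer line. The ALDH1B1 knockdown group, titled KD with the genotype ALDH1B1 KD, has 3 samples, and the control group, titled SCR with the genotype WT, has 3. Samples in both groups are numbered 4, 5 and 6 and are labelled as untreated, and the cells were detached with trypsin-EDTA. The sources used here do not say how the knockdown was made, whether a group is 1 clone, or whether its samples were separate cultures. The p-values therefore reflect variation among these 6 samples alone, which may be technical.

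TGF-beta is secreted in a latent complex, and its release is a known function of the integrins that pair ITGAV with ITGB6 or ITGB8. ITGAV also pairs with ITGB5, a vitronectin receptor, and with ITGB1. ITGB1 is the common beta partner of the collagen receptors ITGA1 and ITGA2, the laminin receptor ITGA3 and the fibronectin receptor ITGA5. Because 1 beta subunit serves many alphas, a transcript level does not give the level of any one receptor at the surface.

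The implied depth was 20360000 to 28590000 reads per sample, and 1 read was worth 0.0350 to 0.0491 RPM. ALDH1B1 itself had 19.99, 20.4 and 23.2 RPM in KD samples 4, 5 and 6, against 34.1, 39.6 and 36.7 RPM in SCR samples 4, 5 and 6, so KD samples kept 57.6% of the control level of the transcript. The epithelial keratins KRT8, KRT18 and KRT19 averaged 2743, 2131 and 811 RPM in KD samples, against 2702, 1881 and 786 RPM in SCR samples. EPCAM, CDH1 and VIL1, also epithelial, rose, and the intestinal factor CDX2 fell. KRT20 had 0.0941 RPM in KD samples and 0.107 RPM in SCR samples on average, near the level of 3 reads. Of 7 fibroblast markers 2 had values, PDGFRB and THY1, and their summed level was 0.190 to 0.382 RPM in KD samples and 0.245 to 0.427 RPM in SCR samples. The leukocyte list, with values for 4 of 7 markers, summed to 3.64 to 4.05 RPM in KD samples and 2.65 to 4.19 RPM in SCR samples. Within it ITGB2 rose by 1.16 on the log2 scale, CD68 fell by 1.93 (0.311 ± 0.106 RPM in KD samples and 1.17 ± 0.320 RPM in SCR samples, limma adjusted p = 7.27e-04), and CD14 did not pass, at -0.52. The endothelial list had a value for 1 of 5 markers, VWF, with 0.497 to 0.688 RPM in KD samples and 0.425 to 0.617 RPM in SCR samples. Platelet markers, with values for 2 of 5, summed to 1.26 to 1.999 RPM in KD samples and 0.639 to 1.04 RPM in SCR samples, and ITGA2B, itself an integrin subunit, made up most of that. None of the markers with values was at 0 in every sample, and the part of other cell types in the results below was not tested. These are bulk samples, in which more cells with a transcript and more transcript per cell cannot be told apart.

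The integrin subunits did not move as a block. ITGB8 rose more than 3-fold, ITGA3 and ITGB6 rose by less, and ITGA1 and ITGB1 fell. ITGAV, ITGB5, ITGA2 and ITGA5 did not pass the test. The test was limma on the log2 values, knockdown minus control, with Benjamini-Hochberg adjustment over all 16301 genes and a threshold of 0.05. Only genes past that threshold are said to have risen or fallen. The 5 changed subunits of 9 compare with 40.1% of all genes tested that were called, the 3 that rose with 22.0%, and the 2 that fell with 18.2%. The groups did not overlap for 4 of the 9, against 50.1% of all genes. A rise of at least 1 on the log2 scale that also passed the test was seen for ITGB8 alone of the 9, and for 5.07% of all genes. With 9 subunits, these counts are too near the background to be read as a result about the group. Their median absolute log2 fold change was 0.21, and that of all genes tested was 0.25.

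**Figure D1:**
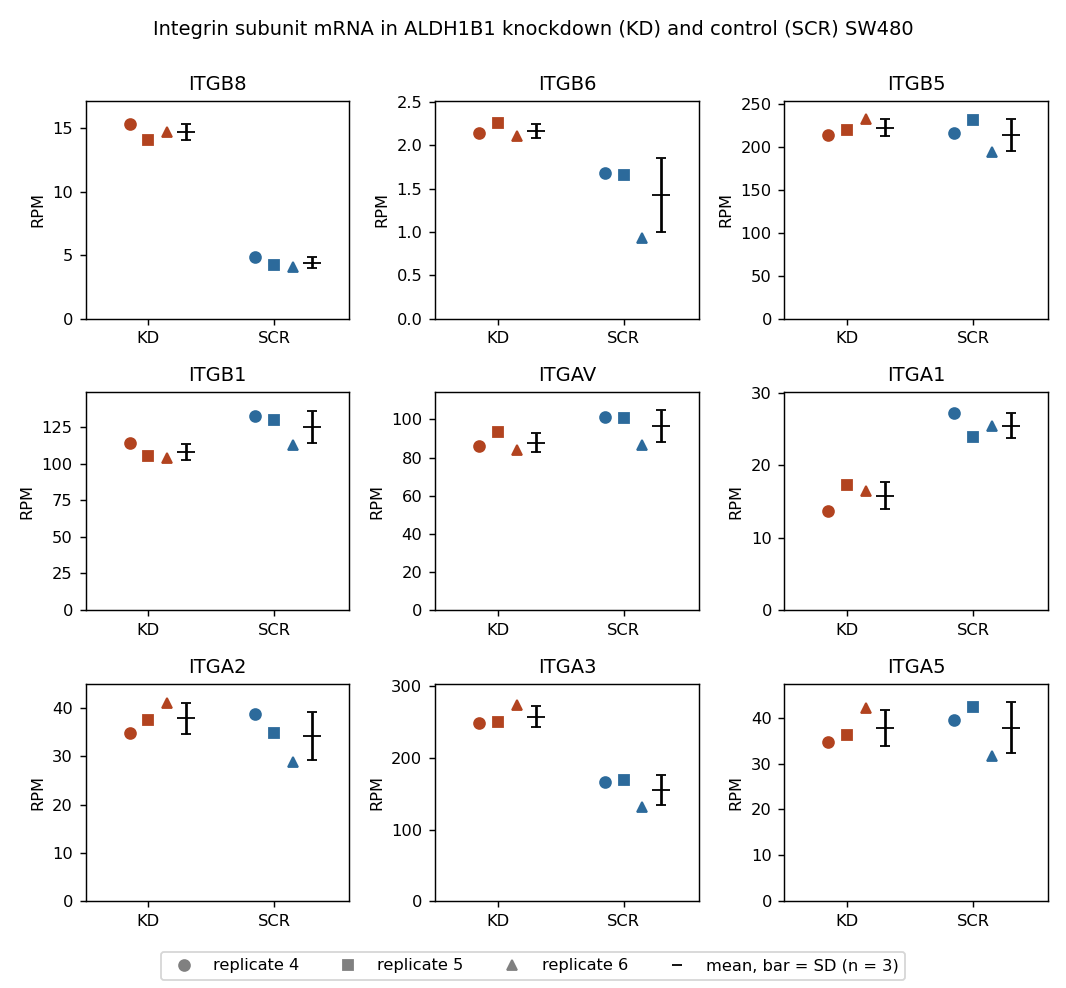
RPM of each of 9 integrin subunits in every sample, with ALDH1B1 knockdown (KD) on the left and control (SCR) on the right of each panel. Marker shape gives the replicate number, and black bars give the mean and SD of 3 samples. KD and SCR samples are fully separated for ITGB8, ITGB6, ITGA1 and ITGA3.

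ITGB8 binds latent TGF-beta and presents it for signalling. It had 15.3, 14.1 and 14.7 RPM in KD samples 4, 5 and 6, against 4.90, 4.27 and 4.04 RPM in SCR samples 4, 5 and 6. Every KD sample was well above every SCR sample, and the samples within each group were close together. The means were 14.7 ± 0.620 RPM in KD samples and 4.40 ± 0.446 RPM in SCR samples (SD, n = 3 each). The log2 fold change was 1.75 (SE 0.123, 95% interval 1.49 to 2.0, limma adjusted p = 1.77e-10), or 3.35-fold. At the implied depths this is some 287 to 385 reads in each KD sample and 90 to 140 in each SCR sample. Among all genes tested, this rise ranked 168. The gene (chromosome 7, 20370325 to 20455378 on the plus strand, in the table's own coordinates, whose build is not named) is protein-coding in GENCODE 29.

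ITGB6 is the epithelial partner of ITGAV that frees TGF-beta under tension. It had 2.14, 2.26 and 2.10 RPM in KD samples 4, 5 and 6, against 1.68, 1.66 and 0.935 RPM in SCR samples 4, 5 and 6. The KD samples lay together, while SCR sample 6 was far below SCR samples 4 and 5. The log2 fold change was 0.65 (SE 0.250, 95% interval 0.14 to 1.17, limma adjusted p = 0.0396), on about 45 to 55 reads per KD sample and 22 to 48 reads per SCR sample. Without SCR sample 6 it was 0.38 (adjusted p = 0.199), and without KD sample 4, 5 or 6 it also missed the threshold (adjusted p = 0.0777, 0.117 and 0.0659). The gene lies on chromosome 2, from 160956177 to 161128400 on the minus strand.

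ITGB5, the most abundant of these beta subunits per length, had 214, 220.4 and 233 RPM in KD samples 4, 5 and 6, against 217, 231 and 195 RPM in SCR samples 4, 5 and 6. The groups overlapped. Its log2 fold change was 0.06 with a 95% interval of -0.10 to 0.22 (limma adjusted p = 0.587), so a change as large as that of ITGB8 lay far outside the interval. ITGB5 lies on chromosome 3, from 124480795 to 124620266 on the minus strand.

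ITGAV, the shared alpha partner of these beta subunits, had 85.9, 93.5 and 84.0 RPM in KD samples 4, 5 and 6, against 101.4, 101 and 86.7 RPM in SCR samples 4, 5 and 6. KD sample 5 was above SCR sample 6, and the groups overlapped. Its log2 fold change was -0.13 with a 95% interval of -0.30 to 0.03 (limma adjusted p = 0.1998). Without SCR sample 6 the value was -0.21 and passed (adjusted p = 0.0212). ITGAV lies on chromosome 2, from 187454792 to 187545629 on the plus strand.

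ITGB1, the beta subunit of most collagen, laminin and fibronectin receptors, had 114, 105.4 and 103.9 RPM in KD samples 4, 5 and 6, against 133, 130.1 and 113 RPM in SCR samples 4, 5 and 6. It was lower in KD samples by a small margin, and KD sample 4 lay above SCR sample 6. The log2 fold change was -0.21 (SE 0.0792, 95% interval -0.38 to -0.05, limma adjusted p = 0.0354). The call was lost without KD sample 5 or 6 (adjusted p = 0.123 and 0.102), without SCR sample 4 or 5 (adjusted p = 0.173 and 0.123), and with the replicate number as a block (adjusted p = 0.102). The gene (chromosome 10, 33189247 to 33294721 on the minus strand) has a copy, ITGB1P1, with 12.2 to 14.1 RPM in KD samples and 12.6 to 15.5 RPM in SCR samples. How the authors counted reads shared by both is not given, so the level of ITGB1 is uncertain to that extent.

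**Figure D2:**
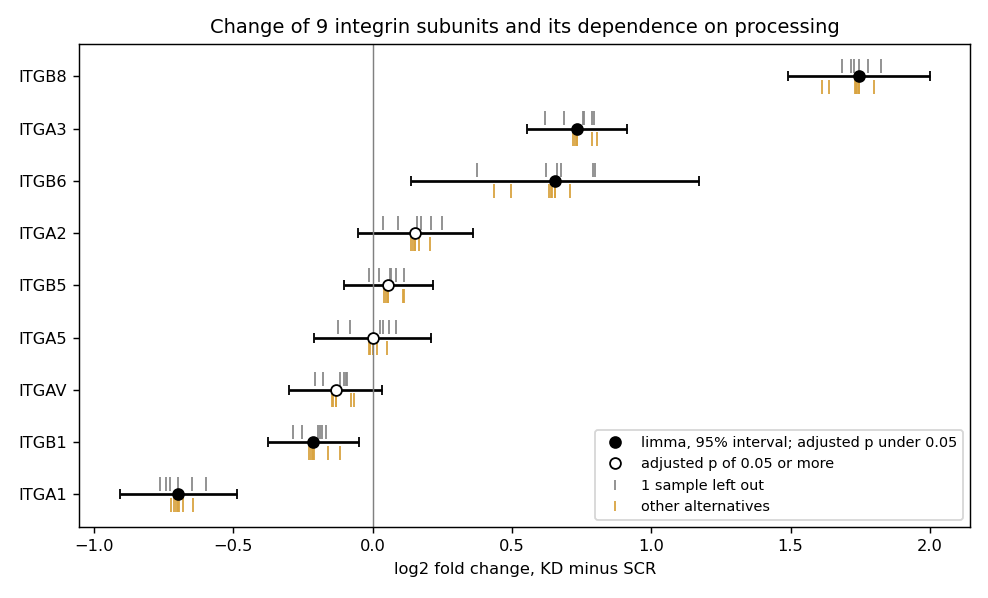
Log2 fold change, KD minus SCR, of 9 integrin subunits (black points, with 95% intervals from limma; filled where adjusted p was under 0.05). Grey ticks show the value with 1 sample left out and ochre ticks the value under each other alternative. ITGB8, ITGA3 and ITGA1 stay well away from 0 under all of them, whereas the ITGB5 and ITGA5 ticks lie around 0.

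Among the alpha partners of ITGB1 in this list, the laminin receptor subunit ITGA3 rose and ITGA1, a collagen receptor subunit, fell. Outside this list, laminin receptor subunits went both ways, with log2 fold changes of -0.31 for ITGA6 and 1.20 for ITGA7. ITGA10, a collagen receptor subunit, had 1.16, a call that depended on the settings. The changes therefore do not follow the type of ligand. ITGA3 (chromosome 17, 48133332 to 48167846 on the plus strand) had 249, 250.0 and 274 RPM in KD samples 4, 5 and 6, against 166, 169 and 132 RPM in SCR samples 4, 5 and 6. All KD samples were above all SCR samples. The means were 258 ± 14.4 RPM in KD samples and 156 ± 20.6 RPM in SCR samples (SD, n = 3 each). The log2 fold change was 0.73 (SE 0.0863, 95% interval 0.56 to 0.91, limma adjusted p = 5.11e-07), or 1.66-fold.

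ITGA1, a receptor for collagen IV and other collagens, had 13.7, 17.2 and 16.4 RPM in KD samples 4, 5 and 6, against 27.2, 23.9 and 25.4 RPM in SCR samples 4, 5 and 6. Every KD sample was below every SCR sample. The means were 15.8 ± 1.83 RPM in KD samples and 25.5 ± 1.66 RPM in SCR samples (SD, n = 3 each), so KD samples held 61.9% of the control level. The log2 fold change was -0.70 (SE 0.102, 95% interval -0.91 to -0.49, limma adjusted p = 9.70e-06).

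ITGA1 (chromosome 5, 52083730 to 52255041 on the plus strand) contains PELO, a ribosome rescue factor, on the same strand. The PELO row starts 44 bases after that of ITGA1 in the annotation. PELO had 15.3, 14.3 and 17.2 RPM in KD samples 4, 5 and 6, against 22.2, 22.8 and 21.1 RPM in SCR samples 4, 5 and 6. No KD sample reached the lowest SCR sample, and the difference on the log2 scale was -0.50 (SE 0.0989, adjusted p = 3.09e-04 by limma). Both genes fell, and reads from exon sequence that they share cannot be told apart by strand. How much of either value comes from shared reads was not tested.

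RefSeq (GRCh38.p14) gives ITGA1 and PELO an identical window of upstream sequence, which is shown because both transcripts fell, and it gives a window for 8 of the 10 subunits in all. The window of ITGB6 is shown beside it as that of a subunit that rose, although that call was lost in 8 alternative fits. Both were cut at the first transcript start in GENCODE 29, which leaves 230 bases for ITGA1 and PELO (chr5:52787666-52787895, plus strand) and 209 bases for ITGB6 (chr2:160200314-160200522, minus strand). Capitals mark matches to 6 short motifs searched on both strands, namely the GC box GGGCGG, the AP-1 site TGANTCA, the SMAD element core CAGAC, the E-box CACCTG, the TEAD site GGAATG and the TATA box TATAAA.
ITGA1 and PELO: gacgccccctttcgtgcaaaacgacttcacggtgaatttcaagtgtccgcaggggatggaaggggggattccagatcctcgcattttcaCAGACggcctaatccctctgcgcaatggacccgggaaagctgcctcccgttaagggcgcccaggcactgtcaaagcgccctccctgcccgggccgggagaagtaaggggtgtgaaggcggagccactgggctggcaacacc
ITGB6: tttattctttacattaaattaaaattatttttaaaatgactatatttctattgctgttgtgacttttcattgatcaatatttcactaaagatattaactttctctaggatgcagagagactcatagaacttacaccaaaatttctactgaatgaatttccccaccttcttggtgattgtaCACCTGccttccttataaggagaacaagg
The ITGA1 and PELO window holds 1 SMAD element core, as do 35.8% of 35116 RefSeq windows cut to the same length, and none of the other 5 motifs. The ITGB6 window holds 1 E-box, as do 15.4% of windows of its length, and none of the other 5. No matches overlapped. The shares for the motifs without a match, at the ITGA1 length, were 40.0% for the GC box, 6.2% for the AP-1 site, 16.4% for the E-box, 11.1% for the TEAD site and 10.4% for the TATA box. At the ITGB6 length they were 36.9% for the GC box, 5.58% for the AP-1 site, 33.5% for the SMAD core, 10.1% for the TEAD site and 7.85% for the TATA box. The ITGA1 and PELO window has 61.7% G and C, against a median of 57.8% over all windows, and the ITGB6 window has 30.1%, against 57.4%. These matches describe the letters only. The ITGB6 row of the expression table spans a longer stretch than the gene in GENCODE 29. The start of that row lies 856511 bases above the start in GENCODE 29. If this shift holds along the gene, the ITGB6 window lies inside the stretch of that row and not upstream of it.

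ITGA2, the other collagen receptor subunit, lies next to ITGA1 on chromosome 5, from 52285156 to 52390610 on the plus strand. It had 34.9, 37.4 and 41.1 RPM in KD samples 4, 5 and 6, against 38.8, 34.9 and 28.9 RPM in SCR samples 4, 5 and 6, and the groups overlapped. Its log2 fold change was 0.15 with a 95% interval of -0.05 to 0.36 (limma adjusted p = 0.231), while that of ITGA1 lay wholly below 0. ITGA5, the fibronectin receptor subunit on chromosome 12 (54789045 to 54813245, minus strand), had 34.6, 36.3 and 42.1 RPM in KD samples 4, 5 and 6, against 39.6, 42.2 and 31.6 RPM in SCR samples 4, 5 and 6. The groups overlapped fully, and the 95% interval of its log2 fold change was -0.21 to 0.21 (limma adjusted p = 0.998).

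In exact two-sided permutation tests of the 6 log2 values, the value for each of ITGB8, ITGB6, ITGA1 and ITGA3 was p = 0.1, and 3 samples a side cannot reach a lower one. ITGB1 and ITGAV gave exact p = 0.2, ITGA2 gave 0.4, ITGB5 gave 0.6 and ITGA5 gave 1.

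The balance between partners was compared within each sample, as the log2 ratio of a subunit to ITGAV or to ITGB1, which does not depend on scaling between samples. The log2 ratio of ITGB8 to ITGAV was -2.48, -2.73 and -2.51 in KD samples 4, 5 and 6, against -4.37, -4.56 and -4.42 in SCR samples 4, 5 and 6. The groups did not overlap, and the ratio was 3.68-fold higher in KD samples, a log2 difference of 1.88. The log2 ratio of ITGB6 to ITGAV was 0.79 higher in KD samples and that of ITGB5 to ITGAV was 0.19 higher, both without overlap. The ratio of ITGB1 to ITGAV overlapped between groups, with a log2 difference of -0.08.

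Against ITGB1, the log2 ratio of ITGA3 was 1.12, 1.25 and 1.40 in KD samples 4, 5 and 6, against 0.33, 0.37 and 0.23 in SCR samples 4, 5 and 6. It was 1.93-fold higher in KD samples, with no overlap. The ratio of ITGA1 to ITGB1 had a log2 difference of -0.48 and that of ITGA2 to ITGB1 one of 0.37, both without overlap between groups. The ITGA5 ratio overlapped, with a log2 difference of 0.21. Of the 8 ratios, 6 gave an exact two-sided permutation p = 0.1, the smallest possible, and an adjusted p = 0.133 over the 8. None could therefore pass a threshold of 0.05 in this design. Among single genes, 50.1% of those tested had groups that did not overlap, ITGB8, ITGB6, ITGA1 and ITGA3 among them. The share for ratios of other gene pairs was not computed, so the count is not a result about partner balance.

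Levels were compared between subunits only per length, as RPM per kb of all annotated exons in GENCODE 29. The gene models behind the counts are not given, so these lengths may not match the stretches counted. The ITGB6 row spans a longer stretch than its GENCODE 29 gene, and ITGA1 may hold reads shared with PELO. The order and the shares below carry that uncertainty. In KD samples the order of mean levels was ITGB5 with 34.5 RPM per kb, ITGA3 with 26.3, ITGB1 with 17.9, ITGAV with 10.7, ITGA5 with 4.97, ITGA2 with 4.78, ITGB8 with 0.971, ITGA1 with 0.851 and ITGB6 with 0.462. In SCR samples it was ITGB5 with 33.3 RPM per kb, ITGB1 with 20.8, ITGA3 with 15.9, ITGAV with 11.7, ITGA5 with 4.99, ITGA2 with 4.32, ITGA1 with 1.37, ITGB6 with 0.304 and ITGB8 with 0.290. Neighbours in the order whose samples overlapped were ITGA5 and ITGA2 in both groups, and ITGB6 and ITGB8 in SCR samples. ITGB8 thus stood above ITGA1 in KD samples and below it in SCR samples, although the KD samples of both lay close, at 0.930 to 1.01 for ITGB8 and 0.740 to 0.928 for ITGA1.

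Among the 3 measured beta subunits that pair only with ITGAV, ITGB8 made up 2.71% ± 0.188 of the summed RPM per kb in KD samples and 0.860% ± 0.0849 in SCR samples (SD, n = 3 each). ITGB6 made up 1.29% ± 0.0850 in KD samples and 0.888% ± 0.209 in SCR samples. ITGB5 held the rest, 96.0% ± 0.234 in KD samples and 98.3% ± 0.232 in SCR samples, so even after its rise ITGB8 was a minor part of this set of transcripts. The share depends on the length used, because ITGB8 has much non-coding exon. Per kb of coding sequence, ITGB8 made up 6.38% ± 0.428 in KD samples and 2.08% ± 0.203 in SCR samples, and it then stood above ITGB6 in both groups.

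**Figure D3:**
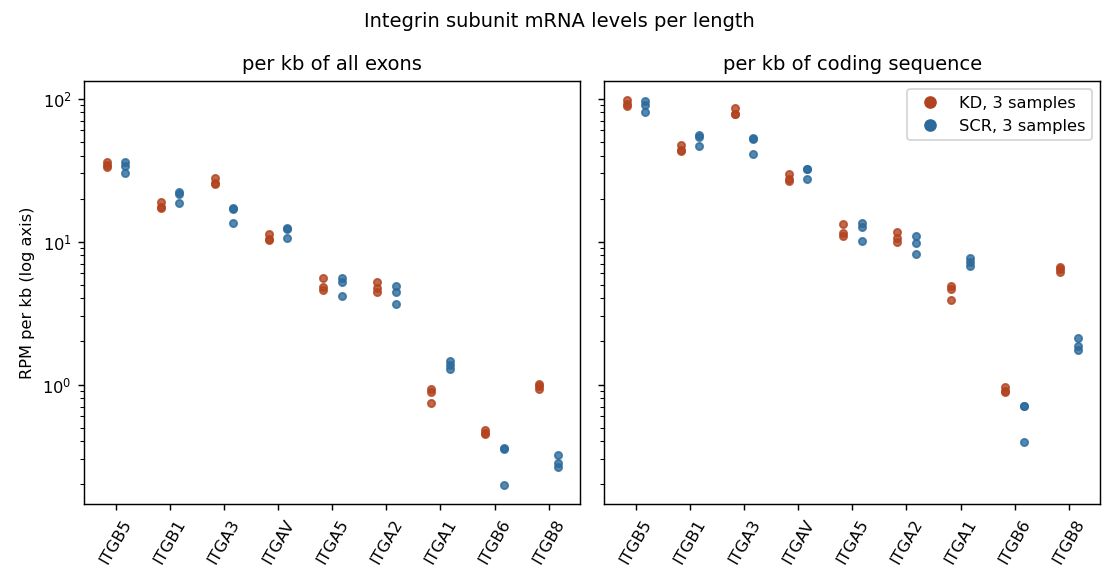
RPM per kb of all exons (left) and per kb of coding sequence (right) on a log axis, with 3 KD samples to the left and 3 SCR samples to the right of each gene name. ITGB5 is highest in both groups, and ITGB8 and ITGB6 are the lowest in SCR samples on both scales.

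Of all genes tested, 22.0% rose and 18.2% fell, which is the background for the counts below. Each subunit was set beside the tested genes that lie at least partly within 5 Mb of either end of its gene. ITGB8 had 36 such neighbours, of which 10 rose and 5 fell. Their median change was 0.05 on the log2 scale, and its own value exceeded that median by 1.70. With windows of 2 and 10 Mb the median was -0.11 and 0.12. Its nearest tested neighbour below, MACC1, an inducer of MET in colon cancer, fell by 1.43 on the log2 scale (SE 0.223, limma adjusted p = 2.17e-05). The starts of MACC1 and ITGB8 lie 0.196 Mb apart. ITGB6 had 29 neighbours with a median of -0.11, of which 1 rose and 8 fell. PLA2R1 was that gene, its nearest tested neighbour below, a phospholipase receptor, with a log2 fold change of 2.34 (SE 0.399, limma adjusted p = 6.25e-05).

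Of the 120 neighbours of ITGA3 within 5 Mb, 43 rose (35.8%) and 4 fell (3.33%), against 22.0% and 18.2% of all genes tested. Within 10 Mb, 29.2% rose and 10.7% fell. Whether these shares differ from those of all genes was not tested. The median within 5 Mb was 0.17 on the log2 scale (0.11 within 2 Mb and 0.12 within 10 Mb), and the value of ITGA3 exceeded it by 0.57. ITGA1 had 27 neighbours with a median of -0.05, of which 2 rose and 5 fell, and its value minus that median was -0.64. Its median was -0.13 within 2 Mb and -0.14 within 10 Mb. ITGAV had 30 neighbours with a median of -0.13, near its own value, and 11 of them fell, but the median within 2 Mb was -0.30 over 4 genes. ITGB1 had 33 neighbours with a median of 0.07, ITGB5 had 82 with -0.09, ITGA2 had 27 with -0.10 and ITGA5 had 193 with 0.07. The sign of these medians turned with the window for ITGB1 (-0.076 within 10 Mb), ITGB5 (0.032 within 2 Mb) and ITGA5 (-0.0085 within 10 Mb), and the median for ITGA2 was -0.24 within 2 Mb. The part that position has in these values was not tested.

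**Figure D4:**
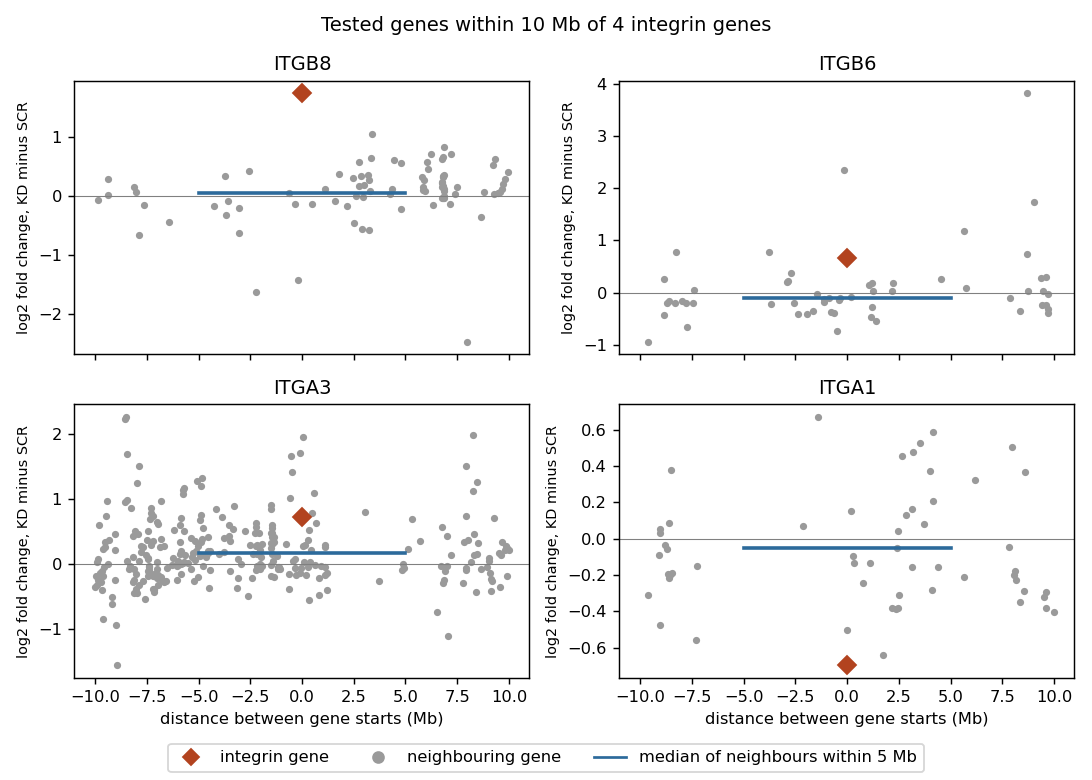
Log2 fold change, KD minus SCR, of tested genes near ITGB8, ITGB6, ITGA3 and ITGA1, against the distance between gene starts in Mb. The red diamond is the integrin gene, grey points are neighbours, and the blue line is the median of neighbours within 5 Mb, which is 0.17 at ITGA3 and between -0.11 and 0.05 at the others.

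The genes whose pattern over the 6 samples was most like that of ITGB8, by the Euclidean distance between log2 values after each gene's mean was taken off, were KRT13, ZNF117, KRT71 and EPS8L3. Their distances were 0.17, 0.21, 0.21 and 0.22. KRT13, a keratin of stratified epithelia, had 186 ± 5.44 RPM in KD samples and 57.6 ± 2.20 RPM in SCR samples (SD, n = 3 each). ZNF117 is on chromosome 7, as ITGB8 is, and the other genes are on chromosomes 17, 12 and 1. For ITGAV the nearest were RNF214, PHACTR2, ALKBH7 and THOC1, at distances of 0.04 to 0.05, with log2 fold changes of -0.11 to -0.14 that did not pass the test.

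Of the other integrin subunits, 11 of 16 had values and 9 passed the filter. Among these 9, 6 rose and 1 fell, against 22.0% and 18.2% of all genes tested. Of the 9, 5 rose without SCR sample 6 and 4 under quantile normalization. Their median log2 fold change was 1.07, against 0.01 over all genes. Genes as low as several of these pass the filter more easily when 1 group is high, so the count does not describe the family. ITGB4, the laminin receptor subunit of hemidesmosomes, had 339, 351 and 382 RPM in KD samples 4, 5 and 6, against 181, 180.2 and 149 RPM in SCR samples 4, 5 and 6. Every KD sample was above every SCR sample, by 1.07 on the log2 scale on average (SE 0.0818, limma adjusted p = 5.38e-10). Its partner ITGA6 fell, with 297 ± 11.6 RPM in KD samples and 368 ± 23.9 RPM in SCR samples and a log2 fold change of -0.31. ITGA7, a laminin receptor subunit of muscle, rose by 1.20. ITGB2, the leukocyte beta subunit, rose by 1.16 at a low level, while another leukocyte marker, CD68, fell. ITGB2 had 2.62 ± 0.245 RPM in KD samples and 1.18 ± 0.181 RPM in SCR samples. ITGA9, a tenascin receptor subunit, rose by 0.92 with overlapping groups, a call lost without SCR sample 6 (adjusted p = 0.0668) and under quantile normalization (adjusted p = 0.0938). The call of ITGA10, a collagen receptor subunit that rose by 1.16, was lost in the same settings (adjusted p = 0.0863 and 0.0750). ITGA4, ITGA8, ITGA11, ITGAD and ITGAL were not analysed here.

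Among matrix ligands of these integrins, fibronectin and tenascin C fell while the laminin chains LAMA5, LAMB3 and LAMA3 rose. Of 24 listed, 18 had values and 15 were tested. The test called 6 higher and 6 lower in KD samples, against 22.0% and 18.2% of all genes tested. The median log2 fold change of the list was 0.13. Those that fell include ligands of ITGAV and ITGA5 receptors. FN1, fibronectin, had 53.9, 58.0 and 62.3 RPM in KD samples 4, 5 and 6, against 149, 150.1 and 142 RPM in SCR samples 4, 5 and 6. TNC, tenascin C, had 11.8, 9.97 and 12.3 RPM in KD samples 4, 5 and 6, against 43.7, 47.7 and 45.6 RPM in SCR samples 4, 5 and 6. For both genes the groups were far apart, with log2 fold changes of -1.34 and -2.01 (limma adjusted p = 4.86e-12 and 3.15e-13). TGFBI, THBS1 and CYR61, matrix proteins that bind integrins, fell by 1.15, 0.81 and 0.98 on the log2 scale. VTN, vitronectin, the ligand of the ITGB5 receptor, was near the level of 3 reads, with 0.203 ± 0.101 RPM in KD samples and 0.208 ± 0.0313 RPM in SCR samples (SD, n = 3 each), and SPP1, osteopontin, was not analysed here.

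Laminins are ligands of ITGA3 and ITGB4 receptors. LAMA5 had 501, 552 and 605 RPM in KD samples 4, 5 and 6, against 357, 355 and 272 RPM in SCR samples 4, 5 and 6, a log2 fold change of 0.76 (SE 0.0938, limma adjusted p = 1.01e-06). LAMB3 and LAMA3 rose by 0.63 and 0.56. These laminin chains were picked out with their values known.

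Of the TGF-beta ligands, TGFB1, whose latent form ITGB6 and ITGB8 receptors bind, fell slightly and TGFB2 fell strongly. TGFB1 had 42.7, 48.6 and 47.1 RPM in KD samples 4, 5 and 6, against 54.8, 61.3 and 49.5 RPM in SCR samples 4, 5 and 6, with no overlap and a difference of -0.25 on the log2 scale (limma adjusted p = 0.0239). TGFB2, whose latent form lacks the integrin-binding motif, had 0.997, 0.737 and 1.07 RPM in KD samples 4, 5 and 6, against 6.23, 7.73 and 5.40 RPM in SCR samples 4, 5 and 6. It fell by 2.79 on the log2 scale (SE 0.2096, limma adjusted p = 4.37e-10). TGFB3 did not pass, with 2.55 ± 0.602 RPM in KD samples and 2.01 ± 0.363 RPM in SCR samples.

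Among the latent binding proteins, LTBP4 rose by 0.62, LTBP3, which binds latent TGF-beta, rose by 0.41 (211 ± 14.4 RPM in KD samples and 159 ± 15.2 RPM in SCR samples, limma adjusted p = 3.01e-04), and LTBP2, which does not bind latent TGF-beta, fell by 0.68. LTBP1, which anchors latent TGF-beta to matrix, did not pass, at 0.33 on the log2 scale (limma adjusted p = 0.306). In that list of storage and activation genes, 3 of 11 tested rose and 5 fell, against 22.0% and 18.2% of all genes tested. The list median was -0.06, and 0.04 under quantile normalization. In the list of receptors, SMADs and targets, 1 of 13 rose and 5 fell, against the same shares of all genes. The median of these 13 was -0.14, and 8 of them fell when SCR sample 6 was left out. That fit also called 3720 genes lower in all, against 2960 with all samples. The median over all genes in it was -0.04. TGFBR1 rose by 0.27 and TGFBR2 fell by 0.28, and the target PMEPA1 fell by 0.31.

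Of 32 adaptors and adhesion complex genes, 31 were tested, and 7 of them rose while 12 fell. The shares over all genes tested were 22.0% and 18.2%, and whether those of the list differ was not tested. The median over the 31 was -0.10 on the log2 scale. Tensins, which bind beta tails and actin, were among those that rose. TNS3 had 63.1, 67.7 and 68.8 RPM in KD samples 4, 5 and 6, against 38.1, 40.6 and 32.1 RPM in SCR samples 4, 5 and 6, 0.86 higher in KD samples on the log2 scale (SE 0.0888, limma adjusted p = 8.07e-08). TNS1 rose by 1.39. DAB2, an adaptor in endocytosis of ITGB1, fell by 1.03, and TLN1, the talin that activates integrins, fell by 0.27. The kindlin FERMT1 and the kinase-like scaffold ILK did not pass, with log2 fold changes of -0.05 and -0.12.

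**Figure D5:**
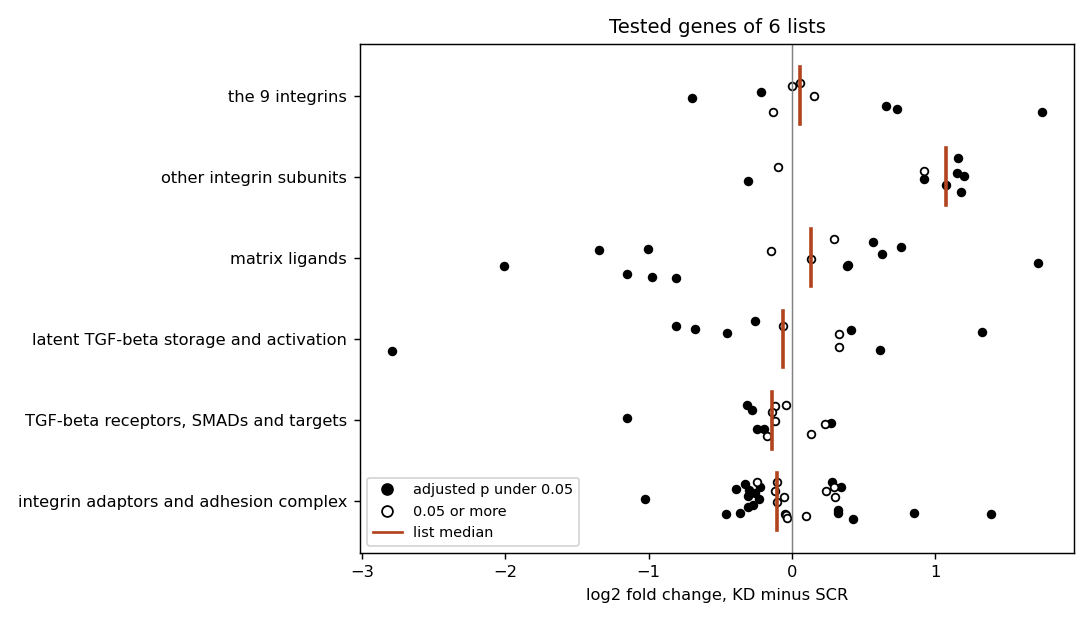
Log2 fold change, KD minus SCR, of every tested gene in 6 lists, with filled points for adjusted p under 0.05 and a red line at each list's median. The list medians are 0.06 for the 9 integrins, 1.07 for the other subunits, 0.13 for matrix ligands, and -0.06, -0.14 and -0.10 for the remaining lists.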

How the data were processed

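RNA from 6 samples was sequenced with strand-specific libraries, per the labels' protocols. The submitters' processing notes name the tools Bowtie and Partek and list hg38 as build. The largest end on chromosome 1 in the table was 249214146, against 248937043 in GENCODE 29 (GRCh38), so positions are printed as the table's own. The sources used here do not give the counting method, gene models or filters. The authors deposited log2 values, read here as log2(RPM + 1e-04) from their floor and spacing. Of low values, 76.3% to 78.6% came within 0.02 reads of whole reads, and of higher values 61.2% to 63.4%, so no count model was run. The 1192 symbols listed at several loci, with equal values, were used once.

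limma 3.58.1 with statmod 1.5.0 in R 4.3.3 (lmFit, eBayes with a trend, no covariates, two-sided) was fitted to the 16301 genes whose mean reached 0.5 RPM, and was tested on simulated data. Python 3.11.15, scipy 1.17.1 and matplotlib 3.10.9 gave the exact tests and figures. After group means were removed, same-numbered samples correlated at -0.04, -0.06 and -0.11 across genes, which does not pair them. Alternatives changed the filter, offset, scaling, variance prior, replicate block and samples. The level of 3 reads, 0.105 to 0.147 RPM, covers counting error only.

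The members and lists were chosen with earlier results of these data known. Named genes are the members, ALDH1B1, up to 4 genes per list with the smallest adjusted p, a fixed list of ligands and partners, and the 4 genes most like ITGB8 and ITGAV. The laminins, LTBP3, ITGA10, the tensins as a group, the neighbours and overlapping genes, and the single cell type markers were named after their values were seen. Some genes that these choices cover are not reported here.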

Additional observations from a re-analysis of the deposited data

How the results depend on the processing

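ITGB8, ITGA3 and ITGA1 kept their direction and their call in all 18 alternatives, with ITGB8 between 1.61 and 1.83 on the log2 scale. The ITGB6 call was lost at a filter of 0.1 RPM, with no filter and without a variance trend (0.65 in each, adjusted p = 0.0590, 0.0711 and 0.0755), and under quantile normalization (0.43, adjusted p = 0.15). A filter of 2 RPM left ITGB6 out, so it gave no value. The ITGB1 call was lost at a filter of 0.1 RPM, with no filter and without a trend (-0.21 in each, limma adjusted p = 0.0577, 0.0651 and 0.135), and under quantile normalization (-0.12, adjusted p = 0.118). In these same 4 settings 3 members were called, 1 of them lower. ITGA2 passed with totals that leave out mitochondrially encoded genes (0.21, adjusted p = 0.0459). ITGA5 turned negative under median of ratios (-0.0091), TMM scaling (-0.014) and without KD sample 6 (-0.082).

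With the replicate number as a block, ITGB1 stayed at -0.21 and lost its call (limma adjusted p = 0.102), which left 1 member lower. The numbers did not pair the samples, and the block ended no other member's call.

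Leaving out 1 sample at a time gave log2 fold changes of 0.38 to 0.80 for ITGB6, -0.011 to 0.11 for ITGB5, -0.29 to -0.17 for ITGB1, -0.21 to -0.093 for ITGAV and -0.12 to 0.085 for ITGA5. Every measured member except ITGA1 was at its low end without SCR sample 6, where the median over all genes was -0.04. Across the fits with 1 sample left out, the members called were 3 to 5, of which 1 to 3 fell. Genes changed in all were 4930 to 6863, against 6543 with all samples. The split into 3583 that rose and 2960 that fell became 3964 and 3821 under median of ratios, 3910 and 3935 under TMM, 3468 and 3920 under quantile normalization, and 4638 and 2885 without mitochondrial totals. The causes were not tested.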
